A study of Rattus norvegicus with 12 samples.

Results

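The 9 genes described here, Hhex, Hnf4a, Foxa1, Foxa2, Foxa3, Cebpa, Onecut1, Prox1 and Nr5a2, encode transcription factors that build and maintain the hepatocyte, the main cell of the liver. They were chosen by symbol, and every probe set annotated to exactly 1 of the 9 symbols was used. All 9 were on the array, of 10411 genes named in all, and they were measured by 11 of 15866 probe sets tested, since Hnf4a and Onecut1 had 2 each. The list was proposed with earlier results of these arrays known, the difference between groups among them, so that difference is given as a description, and the calls of the fit over the whole array are printed beside it without being read as a test of these genes. RNA of whole liver came from 12 male Brown Norway rats of an inbred strain, weighing 150 to 170 g, and each rat had an array of its own. Treated rats (n = 8) were given D-penicillamine, a copper-binding thiol drug, at 150 mg/kg by oral gavage in 1 mL of tap water, and vehicle rats (n = 4) were given water. All were killed at 6 h, after an acclimatization in cages of 2 rats each; the sources used here do not say which rats shared a cage. The title of the series places the study among idiosyncratic drug reactions, which appear in some individuals only. Differences among rats within each group are therefore described as well as differences between the groups. Whether such differences have a part in drug reactions was not tested.

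Hepatocyte identity rests on a network of factors that bind to each other's regulatory regions as well as to the genes of liver metabolism. The Foxa proteins are pioneer factors that open chromatin in the embryonic foregut and remain at liver enhancers in the adult, while Hnf4a, Cebpa, Onecut1, Prox1 and Nr5a2 act with them on genes of plasma proteins, lipids, glucose and bile acids. Hhex is needed for the outgrowth of the liver bud in the mouse and is also made by endothelial cells.

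Array quality set 1 limit on what follows. RNA quality was read from control probe sets of beta-actin and Gapdh, whose 3' signal exceeds the 5' signal more where RNA is degraded, and this 3' minus 5' difference was 1.185 (log2) in vehicle rat 3 and 0.43 to 0.605 in the 11 other rats. This animal was also the highest or lowest of the 12 rats for 9 of the 11 probe sets, so values are given with and without it. The vehicle arrays took positions 1 to 4 of the scan and the D-penicillamine arrays the later ones, so scan position and treatment cannot be told apart. The label of the tissue was borne out by its markers: 13 of 15 listed hepatocyte genes were measured, at 9.13 to 14.88 (log2), and all 13 had a mean above the median signal of the array. So did all of the 9 factors but Foxa1. In whole liver, fewer cells of a type and less RNA per cell cannot be told apart.

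The start regions of 3 members are shown because these 3 genes varied together between rats, as given further on. They are the 250 bases before the annotated start of Hhex (chr1:244602695-244602944, plus strand), Foxa2 (chr3:155927509-155927758, minus strand) and Foxa3 (chr1:87799486-87799735, minus strand), from RefSeq on GRCr8, 5′ to 3′, with matches to the searched motifs in capitals.
Hhex: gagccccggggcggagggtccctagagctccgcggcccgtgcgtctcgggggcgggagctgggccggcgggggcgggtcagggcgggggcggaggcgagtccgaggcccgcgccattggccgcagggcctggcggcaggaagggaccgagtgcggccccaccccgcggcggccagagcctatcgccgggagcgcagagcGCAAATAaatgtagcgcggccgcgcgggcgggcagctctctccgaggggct
Foxa2: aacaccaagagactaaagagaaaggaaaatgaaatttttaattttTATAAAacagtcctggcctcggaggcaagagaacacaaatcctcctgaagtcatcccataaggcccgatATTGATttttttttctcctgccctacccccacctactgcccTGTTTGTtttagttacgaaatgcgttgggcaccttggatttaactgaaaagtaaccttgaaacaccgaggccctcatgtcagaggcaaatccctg
Foxa3: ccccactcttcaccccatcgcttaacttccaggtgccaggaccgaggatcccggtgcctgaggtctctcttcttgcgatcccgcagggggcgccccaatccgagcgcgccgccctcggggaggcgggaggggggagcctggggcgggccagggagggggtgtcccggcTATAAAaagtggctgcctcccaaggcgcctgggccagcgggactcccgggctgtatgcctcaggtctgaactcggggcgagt
Of the 9 genes 6 had an entry in the table, with 7 windows, and Foxa1, Onecut1 and Prox1 had none. The motifs, picked after these sequences had been seen, were a Foxa core (TGTTTAC or TGTTTGC or TATTTAC or TATTTGC or TGTTTGT or TGTTTAT), an Onecut core (ATTGAT), an HNF1 core (GTTAAT), an Nr5a2 core (CAAGGTCA), an Hnf4a core (CAAAGTCCA or CAAAGGTCA), a Cebp core (TTGCNNAA) and a TATA box (TATAAA), all on both strands except the TATA box. Hhex held a Foxa core on the opposite strand, 51 to 45 bases before the start. Foxa2 held a Foxa core 95 to 89 bases and an Onecut core 136 to 131 bases before the start, and a TATA match 205 to 200 bases before it. Foxa3 held a TATA match 82 to 77 bases before the start and none of the other letters. Among the other members, Hnf4a had an Onecut core in its first window, and a Foxa core and 2 HNF1 cores in its second, all on the opposite strand. Cebpa had a TATA match 35 to 30 bases before its start. No match overlapped that of another motif. Such letters are common, since of 33469 windows of this length 19.95% held a Foxa core, 7.099% an Onecut core, 6.454% an HNF1 core and 8.055% a TATA box. The windows also differed in base composition, at 78.4% G and C in Hhex, 42.8% in Foxa2 and 69.6% in Foxa3, against a median of 51.2% over all windows.

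D-penicillamine and vehicle rats overlapped in the values of all 9 factors, and estimated differences ran in both directions. In limma, with p-values adjusted over all 15866 probe sets, 0 of the 11 probe sets passed, where the share called over the whole array was 0%, and the smallest adjusted p of any probe set was 0.147. Unadjusted, 2 of the 11 (Hhex and Foxa1) lay under a p of 0.05, beside 977 of all probe sets or 6.16%. The overlap covered all 11 probe sets, and 0.574% of all probe sets had groups that did not overlap. Differences (log2, D-penicillamine minus vehicle) were positive for 6 probe sets and negative for 5, and the median over the 9 genes was -0.0125, beside -0.0025 over all probe sets. That median was not steady, since it ran from -0.12 without D-penicillamine rat 3 to 0.14 without vehicle rat 4. In size, 10 of the 11 differences were above the array's median absolute difference of 0.0475.

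**Figure D1:**
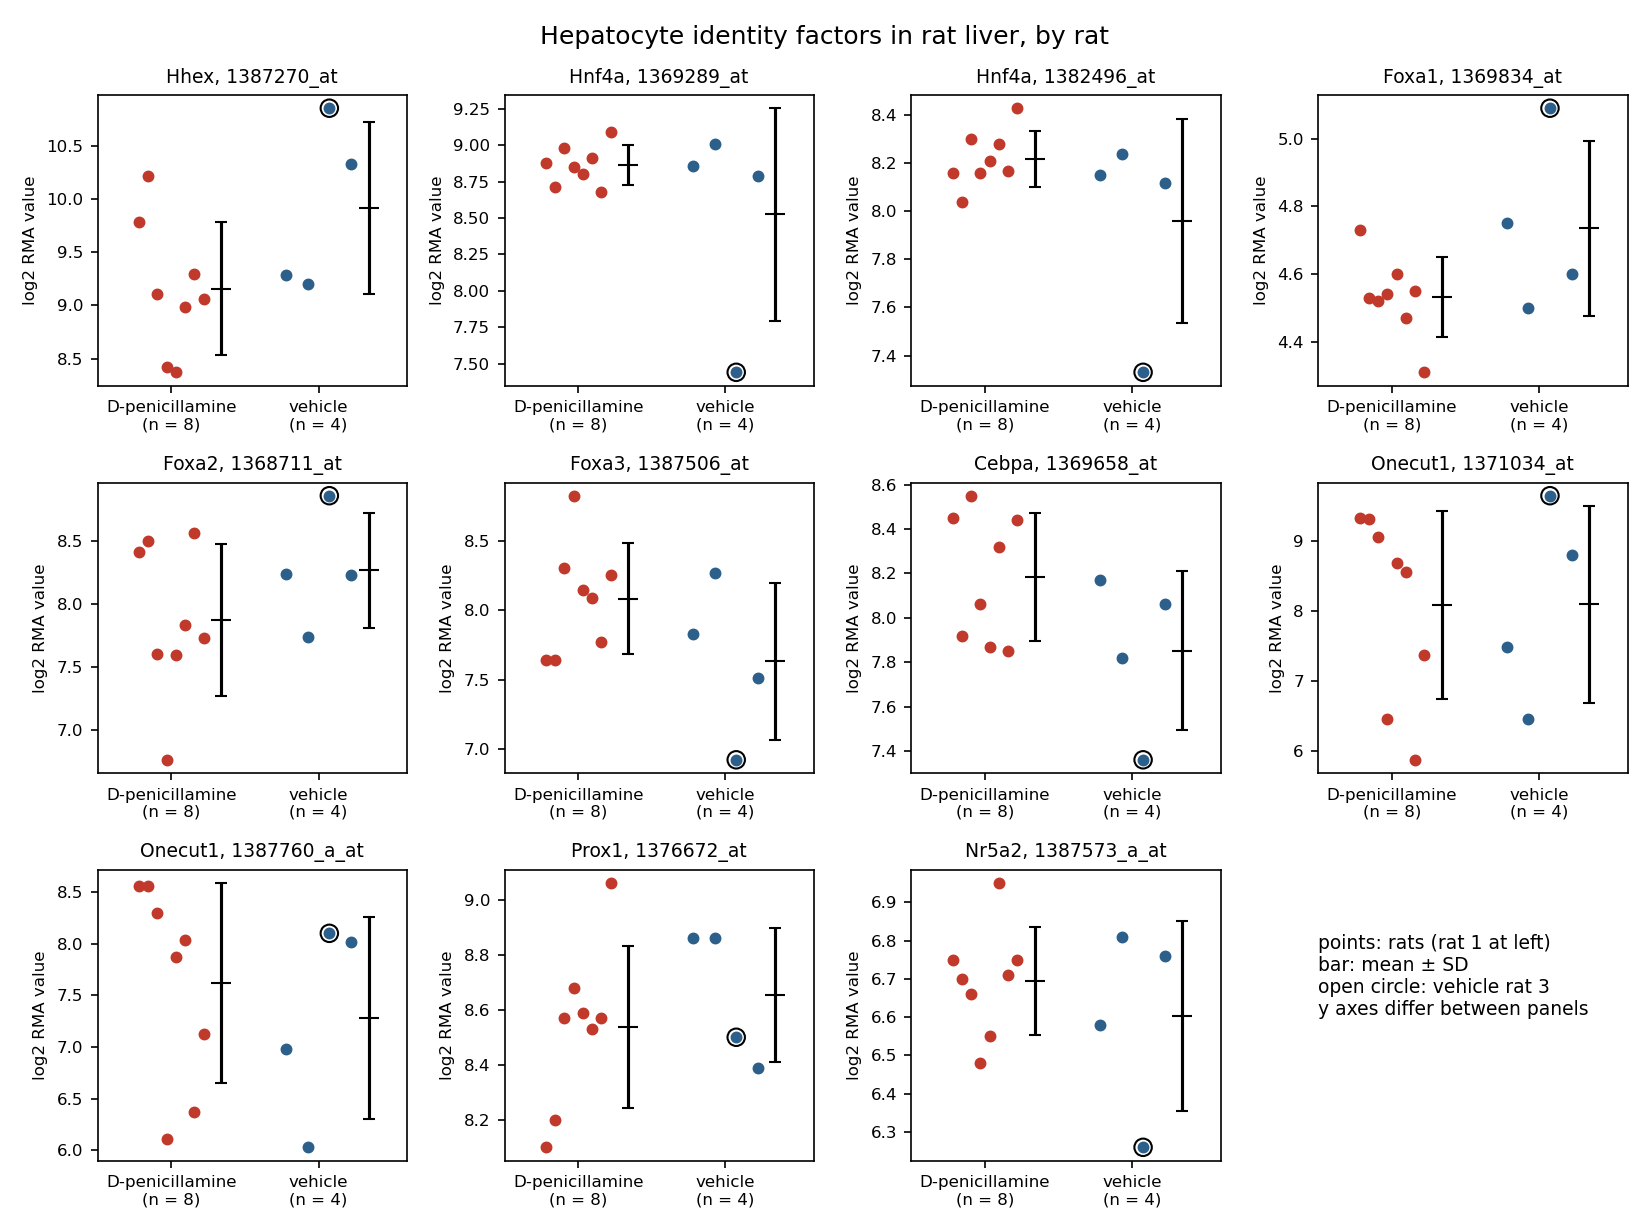
Log2 RMA value (y axis, a scale of its own in each panel) of each of the 11 probe sets in 8 D-penicillamine rats, at left in red, and 4 vehicle rats in blue, with the mean and SD of each group as bars and vehicle rat 3 ringed. The groups overlap in every panel, and both Onecut1 panels span the widest range.

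Among the Foxa factors the 3 genes differed in sign. Foxa1 had values of 4.31, 4.54 and 4.73 (lowest, median and highest, log2) in D-penicillamine rats, against 4.50, 4.60, 4.75 and 5.09 in vehicle rats. Its difference was -0.20 (SE 0.09, 95% interval -0.40 to -0.0045), and it was -0.085 without vehicle rat 3, the highest of the 12. It was the 1 gene of the 9 with a mean signal below the median of the array.

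Foxa2, the member of the family that also acts in glucose and bile acid handling of the adult liver, spread widely in both groups. It had 6.76, 7.78 and 8.56 (lowest, median and highest) in D-penicillamine rats, against 7.74, 8.23, 8.24 and 8.86 in vehicle rats. The 8 treated rats ran below and into the vehicle range, with rats 1, 2 and 7 between 8.41 and 8.56 and rat 4 alone at 6.76. The difference was -0.40 (SE 0.29, interval -1.01 to 0.22), and -0.20 without vehicle rat 3.

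Foxa3 lay the other way. It had 7.64, 8.12 and 8.83 in D-penicillamine rats (lowest, median and highest), against 6.92, 7.51, 7.83 and 8.27 in vehicle rats. With all vehicle rats, 8 of 8 treated rats were above the vehicle mean of 7.63. Without vehicle rat 3 that mean was 7.87, and treated rats 1, 2 and 7, at 7.64, 7.64 and 7.77, lay below it. The highest treated value was that of rat 4, the rat lowest for Foxa2, and the lowest vehicle value was that of rat 3, the rat highest for Foxa2. The difference of 0.45 (SE 0.23, interval -0.045 to 0.95) was 0.22 without vehicle rat 3.

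Of the nuclear receptors, Hnf4a was nearly level in 11 of the 12 rats. Its probe set 1369289_at had 8.68, 8.87 and 9.09 in D-penicillamine rats (lowest, median and highest), against 8.86, 9.01, 7.44 and 8.79 in vehicle rats 1 to 4. The other, 1382496_at, had 8.04, 8.19 and 8.43 in D-penicillamine rats and 8.15, 8.24, 7.33 and 8.12 in vehicle rats 1 to 4. Only vehicle rat 3 lay outside a narrow band, and both probe sets showed it. Differences were 0.34 (SE 0.21, interval -0.11 to 0.79) and 0.26 (SE 0.13, interval -0.021 to 0.54). Without vehicle rat 3 they were -0.024 (interval -0.20 to 0.15) and 0.049 (interval -0.10 to 0.20), so the first turned its sign. Fitting the control difference of 3' and 5' probe sets as a covariate gave -0.023 and 0.048.

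Nr5a2, a receptor that acts on genes of bile acid synthesis and of cholesterol uptake, had 6.48, 6.71 and 6.95 (lowest, median and highest) in D-penicillamine rats, against 6.58, 6.81, 6.26 and 6.76 in vehicle rats 1 to 4. The difference was 0.091 (SE 0.10, interval -0.12 to 0.30), and -0.023 without vehicle rat 3, again the lowest of the 12.

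Hhex, a homeobox repressor, showed the largest absolute difference of the 9 genes. It had 8.37, 9.09 and 10.22 (lowest, median and highest) in D-penicillamine rats, against 9.29, 9.20, 10.86 and 10.33 in vehicle rats 1 to 4, and 7 of 8 treated rats were below the vehicle mean of 9.92. Treated rats 1 and 2, at 9.79 and 10.22, lay among the vehicle values. Both were above the vehicle mean without vehicle rat 3, which was 9.61. Treated rats 4 and 5 were lowest at 8.42 and 8.37. The difference was -0.76 (SE 0.35, interval -1.50 to -0.021). It was -0.45 (interval -1.18 to 0.29) without vehicle rat 3, and ran from -1.0 to -0.45 on leaving out each rat in turn.

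Prox1, a homeobox factor that represses targets of Hnf4a and Nr5a2 and also marks lymphatic endothelium, had 8.10, 8.57 and 9.06 (lowest, median and highest) in D-penicillamine rats, against 8.86, 8.86, 8.50 and 8.39 in vehicle rats 1 to 4. The difference was -0.12 (SE 0.14, interval -0.42 to 0.19), and -0.17 without vehicle rat 3, which was not an extreme for this gene.

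Cebpa, a leucine zipper factor of gluconeogenesis and the urea cycle that restrains hepatocyte division, had 7.85, 8.19 and 8.55 (lowest, median and highest) in D-penicillamine rats. Vehicle rats 1 to 4 had 8.17, 7.82, 7.36 and 8.06. The difference was 0.33 (SE 0.16, interval -0.013 to 0.67), and 0.17 without vehicle rat 3, the lowest of the 12.

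Onecut1, also known as HNF6, a cut homeobox factor of hepatocytes and bile duct cells, gave the widest values of all. Probe set 1371034_at had 9.33, 9.32, 9.06, 6.46, 8.69, 8.56, 5.87 and 7.37 in D-penicillamine rats 1 to 8, against 7.48, 6.45, 9.65 and 8.80 in vehicle rats 1 to 4. Each group held both high and low rats, with 3 treated rats at 7.37 or below and 2 vehicle rats at 7.48 or below. The difference was -0.0125 (SE 0.69, interval -1.48 to 1.46). For 1387760_a_at it was 0.335 (SE 0.49, interval -0.71 to 1.38). The first interval holds a change of 2-fold in either direction, so a group difference of that size was not detectable with these rats.

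**Figure D2:**
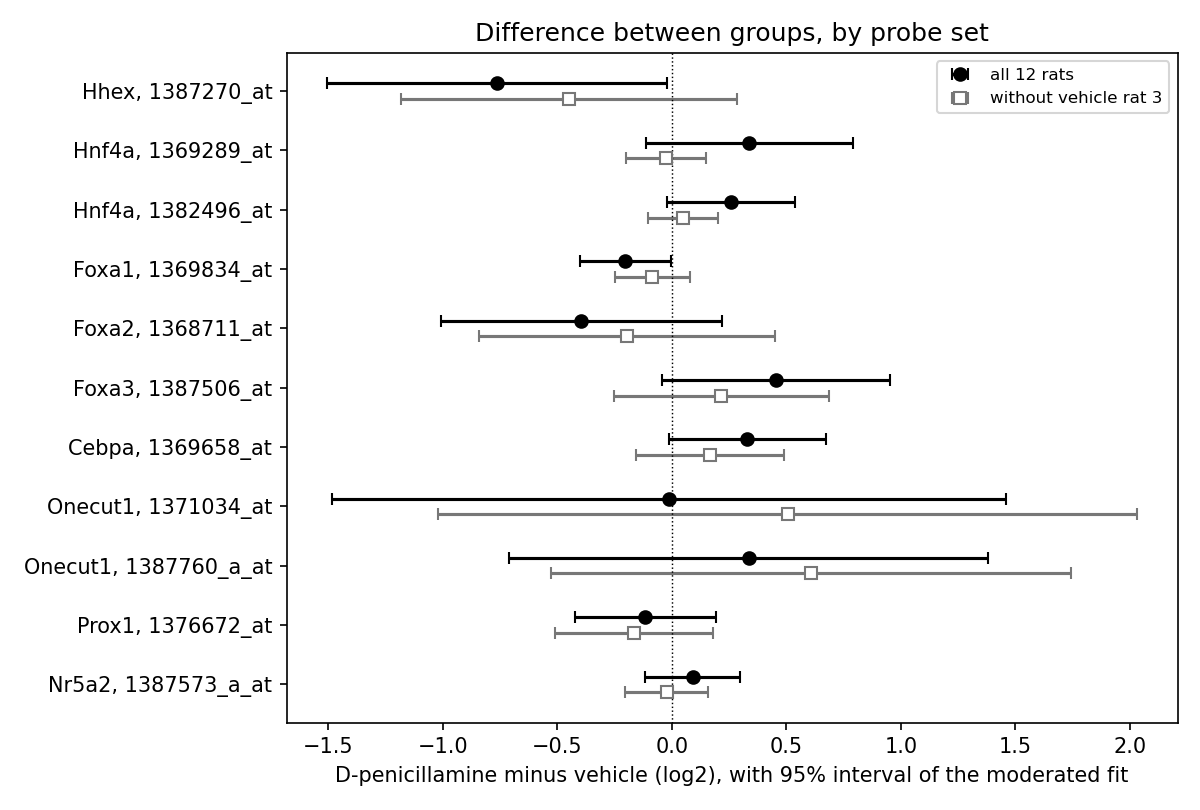
Difference between groups (x axis, log2, D-penicillamine minus vehicle) for each of the 11 probe sets, with 95% intervals of the limma fit, for all 12 rats (filled circles) and without vehicle rat 3 (open squares). Of the 11 intervals 9 include 0 with all 12 rats, those of Hhex and Foxa1 being the exceptions, and all 11 include 0 without vehicle rat 3.

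Within each group, several of the 9 genes differed widely from rat to rat. The SD within groups had a median of 0.10 (log2) over all 15866 probe sets and a 99th percentile of 0.36. All 11 probe sets were above that median and 6 were above the 99th percentile, those of Hhex, Foxa2 and Foxa3, 1 of Hnf4a and both of Onecut1. This is a description, with no test, since the genes were chosen with results of these arrays known.

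Onecut1 had the largest spread of any probe set tested, an SD of 1.37 for 1371034_at, and its other probe set was the sixth at 0.97. The ranks between were held by an unnamed probe set (1.02), Lcn2 (0.996), an acute phase protein, Arrdc3 (0.986), an arrestin, and Igfbp1 (0.985), a binding protein of insulin-like growth factors. From the lowest to the highest of the 12 rats Onecut1 differed 13.7-fold by 1371034_at and 5.78-fold by 1387760_a_at, and within the 8 treated rats alone 11-fold and 5.46-fold. Its first place held in all 18 settings in which the spread was computed, each left-out rat included. The SD by 1371034_at was 1.35 in treated rats and 1.41 in vehicle rats (1.18 without vehicle rat 3), so the spread was not particular to treated rats. The 2 probe sets followed each other across rats, with a correlation of their deviations from the group means of 0.98 over 12 rats and 0.98 over the treated rats alone.

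Hhex ranked 14 of 15866, with an SD of 0.69 and a 5.62-fold range over the 12 rats, or 3.60-fold within treated rats. Foxa2 ranked 32 with an SD of 0.57, and Foxa3 ranked 75 with an SD of 0.46. Their ranges within treated rats were 3.48-fold and 2.28-fold. SDs in treated and vehicle rats were 0.63 and 0.81 for Hhex, 0.61 and 0.46 for Foxa2, and 0.40 and 0.57 for Foxa3. Without vehicle rat 3 the vehicle SDs were 0.63, 0.29 and 0.38. Cebpa (SD 0.31, rank 250), Prox1 (0.28, rank 338), Nr5a2 (0.18, rank 1417) and Foxa1 (0.17, rank 1689) spread less.

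The spread of Hnf4a depended strongly on vehicle rat 3. Its SDs of 0.42 (rank 98) and 0.25 came down to 0.13 and 0.11 without vehicle rat 3, and the range over treated rats was 1.33-fold and 1.31-fold. Its 2 probe sets had a correlation of 0.98 over 12 rats and of 0.87 over treated rats alone, so the smaller differences among treated rats were also shared by both. The SD of Foxa1 also came down without vehicle rat 3, from 0.17 to 0.12. Within treated rats Hnf4a and Foxa1 had the narrowest ranges of the 9 genes, and Onecut1, Hhex and Foxa2 had the widest.

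**Figure D3:**
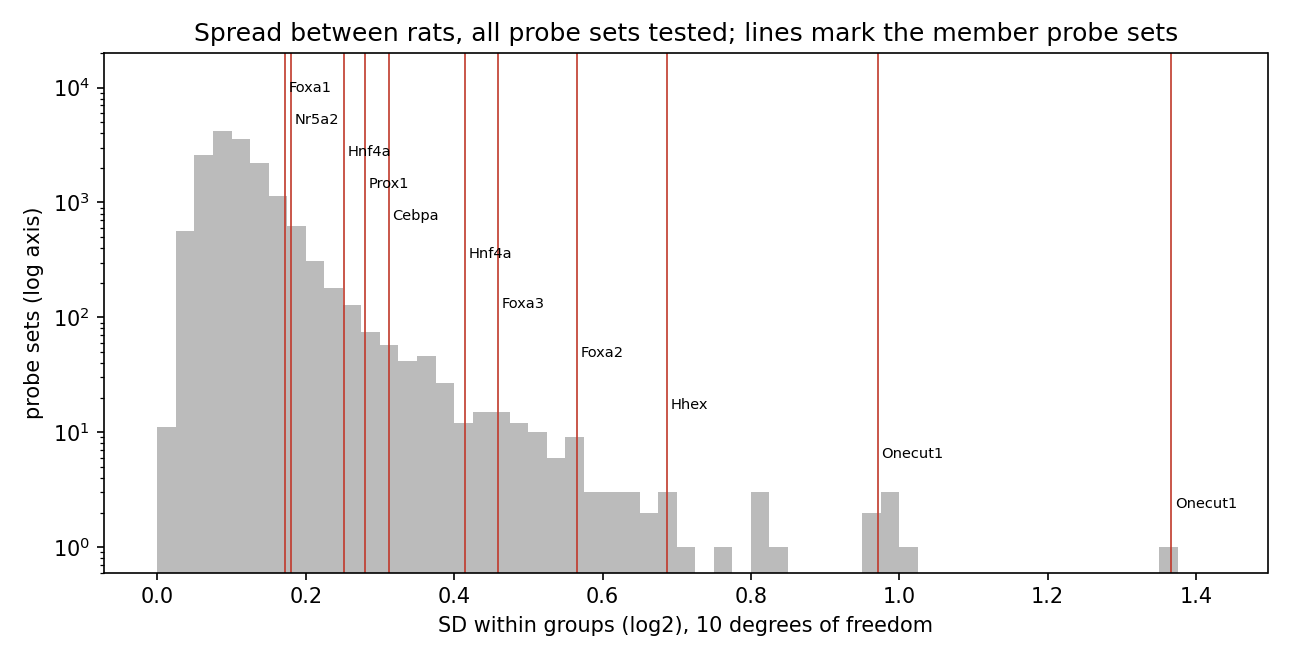
Number of probe sets (y axis, log scale) by their SD within groups (x axis, log2, over 12 rats) for all 15866 probe sets tested, with red lines at the 11 probe sets of the 9 genes. The Onecut1 lines lie at 0.97 and 1.37, and the Hnf4a lines lie at 0.25 and 0.42 with vehicle rat 3 included.

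Next it was asked which of the factors moved together from rat to rat. Each rat's deviation from its group mean was taken, so the comparison does not use the difference between groups, and all 36 pairs of the 9 genes were correlated over the 12 rats, with permutation of the deviations within groups and adjustment over the 36 pairs. Of these, 3 pairs passed an adjusted p of 0.05 by Pearson's r, and 14 lay under an unadjusted p of 0.05. The share of all pairs on the array under these p-values was not computed. Over all other probe sets the 99th percentile of the absolute r was 0.74 with Hhex, 0.79 with Foxa2 and 0.77 with Foxa3. The 3 pairs joined Foxa2, Foxa3 and Hhex, and all 3 also passed by Spearman's rho. The genes had been chosen with earlier results of these arrays known, and the form of permutation after the data were seen. The p-values of pairs, here and below, are therefore not those of a test fixed beforehand.

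Foxa2 and Foxa3 went opposite ways. Their correlation was -0.94 (two-sided permutation p = 8e-05, adjusted p = 0.00288) with a rho of -0.85 (adjusted p = 0.0353), and the deviations had opposite signs in 11 of 12 rats. It was -0.94 without the 2 rats farthest out in Foxa2, -0.98 within the 8 treated rats and -0.94 without vehicle rat 3. Foxa2 deviations had a gap, with 3 treated rats and vehicle rat 3 at 0.54 or more above their group means and the 8 other rats at -0.028 or below. Over those 8 rats alone r was -0.88.

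Hhex went with Foxa2 and against Foxa3. Hhex and Foxa3 had an r of -0.87 (permutation p adjusted 0.0155, rho -0.81) and opposite signs in 12 of 12 rats. Hhex and Foxa2 had an r of 0.80 (permutation p adjusted 0.0247, rho 0.80) and the same sign in 11 of 12 rats. Without the 2 rats farthest out in Hhex these were -0.79 and 0.72, and within treated rats -0.81 and 0.82. Over the 8 rats below the gap in Foxa2 they were -0.65 and 0.54.

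Vehicle rat 3 carried part of these calls. Without it r was -0.82 for Hhex with Foxa3 and 0.76 for Hhex with Foxa2, and both had an adjusted p of 0.0918, while Foxa2 with Foxa3 still passed. Over the treated rats alone Foxa2 with Foxa3 passed (permutation p adjusted 0.0475) and the pairs with Hhex did not (0.151 for both). With both vehicle rat 3 and D-penicillamine rat 4 left out no pair passed, and Foxa2 with Foxa3 had an adjusted p of 0.135 at an r of -0.90. Over 18 alternative settings the pair Foxa2 and Foxa3 passed in 17, with r from -0.98 to -0.90, and each pair with Hhex passed in 15. By rho fewer settings passed, 10 of 18 for Foxa2 with Foxa3 (adjusted permutation p from 0.00864 to 0.189), 6 for Hhex with Foxa3 and 5 for Hhex with Foxa2.

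**Figure D4:**
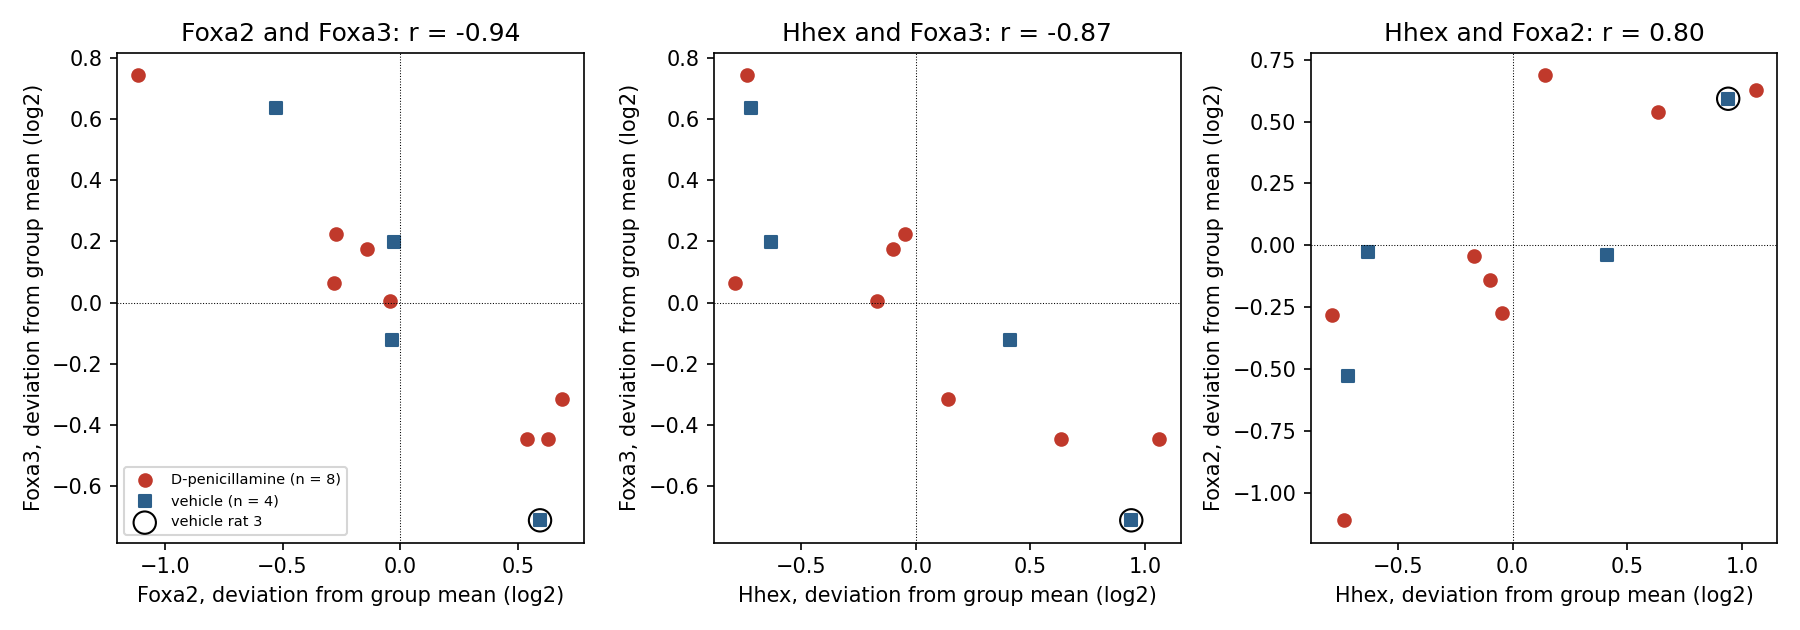
Deviation from the group mean (log2) of Foxa3 against Foxa2, Foxa3 against Hhex, and Foxa2 against Hhex in 8 D-penicillamine rats (red circles) and 4 vehicle rats (blue squares), with vehicle rat 3 ringed. Foxa2 and Foxa3 deviate with opposite signs in 11 of 12 rats, and r is -0.94, -0.87 and 0.80 from left to right.

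The measure of RNA quality correlated with Foxa2, Foxa3 and Hhex in opposite directions with and without vehicle rat 3. Over 12 rats the 3' minus 5' difference had an r of 0.16 with Foxa2, -0.36 with Foxa3 and 0.36 with Hhex. Without vehicle rat 3, over 11 rats whose control difference lay within 0.43 to 0.605, these were -0.75, 0.76 and -0.46. With the control difference as a covariate Foxa2 and Foxa3 kept an r of -0.95 over 12 rats, and of -0.87 without vehicle rat 3. Markers of endothelial cells, which also make Hhex, were measured for 12 of 16 genes, with a mean level of 6.83 to 6.96 in D-penicillamine rats and 6.84 to 6.97 in vehicle rats, and no detection call tells which are absent. Their mean had an r of 0.70 with Hhex, 0.55 with Foxa2 and -0.61 with Foxa3. Without vehicle rat 3 these were 0.58, 0.44 and -0.43. The mean of 12 stellate cell markers lay at 6.76 to 6.97 in D-penicillamine rats and 6.73 to 7.05 in vehicle rats. It had an r of 0.40 with Hhex, 0.51 with Foxa2 and -0.53 with Foxa3. Without vehicle rat 3 these were 0.48, 0.56 and -0.67. Values of similar size came from the mean of 9 lymphocyte markers, of which only 2 lay above the median signal of the array. That mean had an r of -0.50 with Hhex, -0.47 with Foxa2 and 0.49 with Foxa3. Without vehicle rat 3 these were -0.40, -0.39 and 0.38. The part of RNA quality and of these cells in the pattern was not tested.

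Other pairs were less steady. Hnf4a and Cebpa had an r of 0.71 (permutation p adjusted 0.0567) and 0.86 within treated rats, and passed by rho (permutation p adjusted 0.0387, rho 0.74). Hnf4a and Foxa1 had an r of -0.82 (permutation p adjusted 0.0894), which was -0.46 without the 2 rats farthest out in Hnf4a. Hnf4a also followed the control difference at -0.89 with all rats and 0.25 without vehicle rat 3. Onecut1 passed with no other member over 12 rats, and its r with Foxa3 was -0.61. Without D-penicillamine rat 7, the rat lowest for Onecut1 and highest among treated rats for Foxa2, Onecut1 passed with Foxa3 at -0.91 and with Foxa2 at 0.83. Prox1 had negative r with Hhex (-0.71), Onecut1 (-0.65) and Foxa2 (-0.55) and positive r with Foxa3 (0.67), none past the adjustment.

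**Figure D5:**
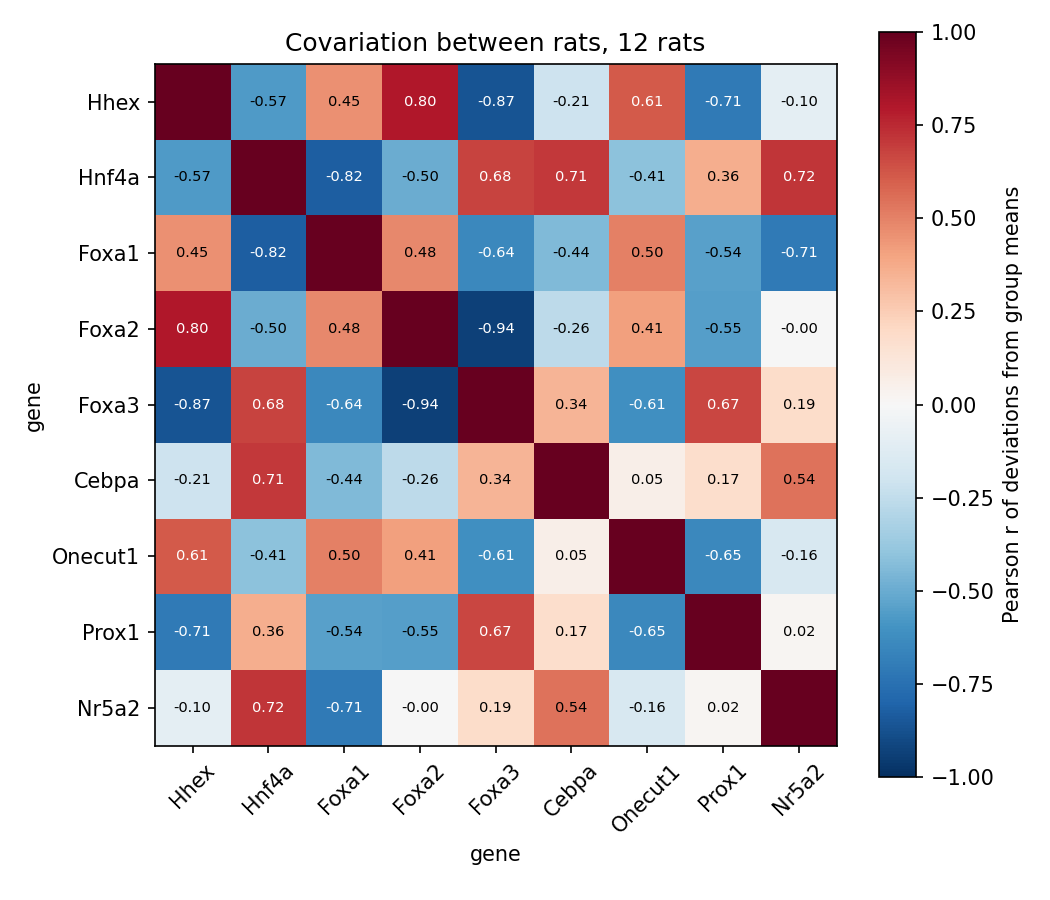
Pearson's r (colour and printed value, from -1 in blue to 1 in red) of deviations from group means over 12 rats for all 36 pairs of the 9 genes, in rows and columns. Foxa3 has negative r with Hhex (-0.87), Foxa2 (-0.94) and Onecut1 (-0.61), and positive r with Hnf4a (0.68) and Prox1 (0.67).

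For each factor the genes with the most similar pattern over the 12 rats were taken by Pearson's r of the same deviations among all named probe sets. They are descriptions, since the highest r of 15866 is high by selection, and the 99th percentile of the absolute r lay between 0.73 and 0.83 for the 9 genes. Onecut1 was followed by Mvb12a (0.94), a subunit of the sorting complex of endosomes, Il6st (0.93), the signalling receptor of interleukin-6, and Tmx4 (0.92). Hhex was followed by Itpr1 (0.92), a calcium channel of the endoplasmic reticulum, Kif13a and Net1. Foxa2 was followed by Ell (0.94), an elongation factor of RNA polymerase, Ctsf (0.93), a lysosomal protease, and Sgip1 (0.92). Foxa3 was followed by Ldb1 (0.88), Hyou1 (0.87), a chaperone of the endoplasmic reticulum, and Inhbe (0.86), an activin subunit of the liver.

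Cebpa was followed by Cyp2c7 (0.90), a cytochrome P450, Unc5b (0.89) and Acacb (0.87), an enzyme of fatty acid metabolism. Prox1 was followed by Shb (0.93), Sorl1 (0.91) and Zfp518b (0.91). Nr5a2 was followed by Smad4 (0.94), Akap1 (0.92) and Slc22a23 (0.92), and Foxa1 by Klf2 (0.90), Ints1 (0.87) and Hnrnpa1 (0.86). These values stayed at 0.70 or above without vehicle rat 3. Hnf4a was the exception, with Lman1 at 0.95, Blcap at 0.95 and Ndst1 at 0.94 over 12 rats, and 0.45, 0.47 and 0.69 without that rat.

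None of the known targets of the factors passed the test between groups, and the targets' correlations with their factors went both ways within each list. Of 20 measured genes known to be bound or driven by Hnf4a, of 30 listed, 10 were higher and 10 lower after D-penicillamine, with a median difference of -0.0025, and 0 passed the adjusted limma test. The apolipoprotein gene Apoc3 had 13.87 ± 0.04 in D-penicillamine rats and 13.87 ± 0.03 in vehicle rats (SD, n = 8 and 4). The fatty acid binding protein gene Fabp1 had 13.21 ± 0.07 in D-penicillamine rats and 13.32 ± 0.05 in vehicle rats, a difference of -0.11 (SE 0.05). The median r of the 20 genes with Hnf4a was -0.11, with 6 of 20 positive, and 0.18 without vehicle rat 3, with 13 of 20 positive. Over all genes these medians were 0.0015 and -0.015, with 50.2% and 48.4% positive.

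Targets of the Foxa factors numbered 13 measured of 16, 7 higher and 6 lower, with a median of 0.0125. Albumin (Alb), at the top of the array's scale, had 14.85 ± 0.03 in D-penicillamine rats and 14.88 ± 0.01 in vehicle rats. Afp, the fetal counterpart of albumin, had 7.38 ± 0.18 in D-penicillamine rats and 7.74 ± 0.14 in vehicle rats, a difference of -0.36 (SE 0.09) that did not pass the adjustment. The targets' median r was 0.24 with Foxa2 (10 of 13 positive), -0.28 with Foxa3 (4 of 13) and -0.11 with Foxa1 (5 of 13). Over all genes the medians were 0.085, -0.055 and 0.029, with 57.3%, 45.1% and 53.6% positive. Without vehicle rat 3 the targets' medians were 0.29 (11 of 13), -0.35 (2 of 13) and -0.23 (3 of 13), beside 58.3%, 43.1% and 49.8% positive over all genes. Foxa2 and Foxa3 had an r of -0.94 with each other, so their values here are not separate observations. The largest single values were those of Tat, an enzyme of tyrosine breakdown, at -0.71 with Foxa2, 0.75 with Foxa3 and -0.78 with Foxa1, and Afp had 0.64 with Foxa2. Of 11 measured Cebpa targets, of 18 listed, 7 were higher and 4 lower (median 0.041), with Arg1 of the urea cycle at 0.16 (SE 0.08) and Pck1 of gluconeogenesis at -0.16 (SE 0.10). Of 11 measured Nr5a2 targets, of 14 listed, 9 were higher and 2 lower (median 0.060). Among them were Nr0b2, taken up again below, at 0.99 (SE 0.27), and Scarb1, a lipoprotein receptor, at 0.17 (SE 0.12). This list also holds Onecut1, itself 1 of the 9 genes. Scarb1 had an r of 0.85 with Nr5a2 (0.79 without vehicle rat 3), the highest of these targets with their factors, and the list medians were 0.13 for Nr5a2 and 0.054 for Cebpa. Single rats turned the sign of 3 median differences, which were -0.020 for Foxa targets without vehicle rat 3, -0.012 for Cebpa targets without vehicle rat 1 and 0.011 for Hnf4a targets without D-penicillamine rat 4. Tat and Scarb1 with their correlations are named after their values were seen. None of these genes passed the adjusted limma test. The lists share members, such as Alb, Otc and Slc2a2.

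Markers of cell states and of other cells did not pass either, with 0 called in each list. The 13 hepatocyte markers had a median difference of -0.016 (5 higher, 8 lower after D-penicillamine), and 10 genes of the fetal liver, to which Afp belongs, had 0.025 (6 higher, 4 lower). Genes of the pericentral zone, where Wnt signalling is active, had 0.067 (8 of 12 higher), and those of the periportal zone 0.041 (8 of 13 higher). Kupffer cell markers had a median of 0.119 with 7 of 7 higher, endothelial markers -0.029 with 5 of 12 higher, and stellate cell markers -0.094 with 3 of 12 higher. Bile duct markers had 0.024 with 5 of 7 higher, and 4963 of 10411 named genes were higher. Single rats moved these medians widely. The Kupffer median was 0.062 without vehicle rat 2, the endothelial one -0.0029 without vehicle rat 3, and the stellate one -0.020 without vehicle rat 1 and -0.14 without vehicle rat 2. The pericentral median was 0.023 without vehicle rat 2 and 0.12 without vehicle rat 1, the fetal one 0.0030 without D-penicillamine rat 8 and the hepatocyte one -0.0082 without D-penicillamine rat 4. The periportal median turned to -0.027 without vehicle rat 1, and the bile duct one to -0.0021 without vehicle rat 4.

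A further list of 25 measured liver transcription factors and cofactors, of 31, had 17 higher and 8 lower after D-penicillamine, with a median of 0.029, and 0 passed. Nr0b2, which encodes SHP, the repressor partner of Nr5a2 and Hnf4a, had 8.30 ± 0.52 in D-penicillamine rats and 7.32 ± 0.54 in vehicle rats. Its difference was 0.99 (SE 0.27, adjusted p = 0.614 in limma over all probe sets), and 0.78 without vehicle rat 3. Tcf7l2, the nuclear partner of beta-catenin, was at -0.33 (SE 0.10). Xbp1 and Atf5, factors of secretory and amino acid stress, differed by 0.21 (SE 0.20) and 0.018 (SE 0.10). Onecut2, the paralogue of Onecut1, had 8.46 ± 0.19 in D-penicillamine rats and 8.45 ± 0.16 in vehicle rats, an SD far below that of Onecut1.

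Onecut1 transcription in rat liver is known to respond to growth hormone, which male rats release in pulses. Because Onecut1 spread so widely, 11 measured genes of growth hormone signalling, of 12 listed, were set beside it, a list chosen after values were seen. Their median r with Onecut1 was 0.21, with 8 of 11 positive, beside -0.016 and 48.3% positive over all genes. Socs2, an inhibitor that the hormone induces, had an r of 0.82 over 12 rats and 0.86 within treated rats. Cish, of the same list, had only 0.21 over 12 rats and -0.072 within treated rats. The insulin-like growth factor gene Igf1 had an r of 0.56, and its carrier Igfals 0.56. Negative values were those of Socs3, an inhibitor of cytokine signalling, at -0.57, the signal transducer Stat5b at -0.33 and Serpina3n at -0.23. Hormone levels and the hours of dosing and killing were not analysed here, and the part of growth hormone in the spread was not tested.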

How the data were processed

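RNA of liver from 12 rats was measured on 1 type of Affymetrix rat array, 1 array per rat, with groups taken from the labels. The authors deposited log2 values to 2 decimals, made with RMA (background correction, quantile normalization and summary of the probes of a probe set), per the submitters' processing notes; the version is not given in the sources used here. Of 15923 probe sets 57 controls were left out. Names came from the annotation of the platform, where 12783 probe sets had 1 symbol. The groups were compared in limma 3.58.1 (R 4.3.3; lmFit, eBayes, two-sided) over 15866 probe sets with Benjamini-Hochberg adjustment at 0.05 and 95% intervals. Spread was the SD of deviations from group means. Pairs of genes were tested with 100000 permutations of these deviations within groups (scipy 1.17.1), which assumes that rats of a group are exchangeable; that form was chosen after the data were seen. Genes with several probe sets entered pairs and lists by the one with the highest mean. Genes named beside the 9 were, per list, the 2 with the highest mean and the 2 with the smallest p, and, per factor, the 3 with the highest r; Onecut2 and the growth hormone genes were added after values were seen. Members and lists were chosen with earlier results of these data known. Array medians lay between 6.30 and 6.35, arrays correlated at 0.987 to 0.998, and precision is limited by how many arrays there are. RMA values carry no detection call, and the signal of a probe set also depends on its probes, so means of different probe sets served only to pick probe sets and genes and to place them above or below the median of the array. Promoter windows and their motif shares came from RefSeq on GRCr8, and the array files give no build.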

Additional observations from a re-analysis of the deposited data

Results flagged for a closer look

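Vehicle rat 3 stood far from the 3 other vehicle rats for both probe sets of Hnf4a. It had 7.44 for 1369289_at, where the nearest vehicle rat had 8.79, and 7.33 for 1382496_at, where the nearest had 8.12 (log2). It also stood apart in the 3' minus 5' control difference, at 1.185 against 0.585 in the nearest vehicle rat. These 3 were found among 24 groups of samples examined in this way, and chance marks about 1 in 20. The part of RNA quality in the Hnf4a values was not tested, and with the control difference as a covariate the Hnf4a differences between D-penicillamine and vehicle rats were -0.023 and 0.048.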

How the results depend on the processing

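With array weights 2 probe sets passed in limma, and on leaving out each rat in turn the count ran from 0 to 1, with 1 without D-penicillamine rat 1; none was of the 9 genes, and no probe set passed in the other settings run. The median difference over the 9 genes ran from -0.12 to 0.14 over left-out rats. Deviations of rats with the same number in both groups correlated at 0.21, -0.15, 0.19 and -0.14 over all probe sets. Rats with different numbers were not compared, so these values cannot tell whether rat numbers pair the samples. With the replicate block, which uses rats 1 to 4 of each group, the median over the 9 genes was 0.045 and 0 probe sets passed. For pairs of genes the count of 3 became 5 with the 3' minus 5' covariate, 1 over D-penicillamine rats alone and 0 with vehicle rat 3 and D-penicillamine rat 4 both left out (the last 2 chosen after seeing the data), and it ran from 1 to 5 over left-out rats. It was 1 without vehicle rat 3 and 5 without D-penicillamine rat 4 or 7. Settings with fewer rats have less power by construction, and among them the count both fell and rose. The cause of these changes was not tested. All 209 alternative values of the 11 differences stayed within the spread between rats of the reported values, as did 179 values of the spreads, with 8 exceptions, all of Hnf4a. Among list medians 271 did so, with 1 exception, that of the 25 further factors, 0.065 without D-penicillamine rat 2. For the differences that spread is a wide yardstick, and signs turned within it. Over left-out rats Hnf4a ran from -0.024 to 0.50 by 1369289_at and Onecut1 from -0.56 to 0.51 by 1371034_at. Limits are the 8 and 4 rats, the RNA quality of vehicle rat 3, scan positions that follow the groups and, for Foxa1, a signal below the median of the array.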
